A study of Homo sapiens with 6 samples.

Results

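The genes described here encode the large families of enzymes that oxidize, reduce and conjugate drugs, steroids and aldehydes. They were taken by name as the protein coding genes whose symbols begin with UGT1A, UGT2, SULT, GST, AKR1, CYP2, CYP3, CYP4 or ALDH, with ALDH1L2 and ALDH18A1 left out. This gave 108 of the 24960 genes in the count table, made up of 16 UGT, 11 SULT, 16 GST, 11 AKR1, 37 CYP and 17 ALDH genes. The letters CYP2, CYP3 or CYP4 also begin the names of 9 genes of other P450 families. These are CYP20A1, CYP21A2, CYP26A1, CYP26B1, CYP26C1, CYP27A1, CYP27B1, CYP39A1 and CYP46A1. They were kept apart from the 28 genes of families CYP2, CYP3 and CYP4.

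RNA had been sequenced from K562 cells, a suspension line derived from chronic myeloid leukemia (CML) that carries the BCR::ABL fusion and an erythroid and megakaryocytic character. The control group held 3 libraries of K562 cells labelled control, and the hyperoside group held 3 libraries of K562 cells given hyperoside, a plant flavonol glycoside, at 2 mM. The groups come from the labels and the dose from the article. The labels give no further genotype or agent, and neither they nor the methods state how long the cells had been treated before RNA extraction or whether the replicates were separate cultures. All libraries came from a single cell line, so the p-values given here measure the spread between these libraries, which may be technical. The comparison asks which genes changed their RNA level in K562 cells under hyperoside.

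These enzymes act in sequence on foreign and natural compounds. Cytochrome P450 enzymes (CYP) insert oxygen with electrons passed on by their reductase, aldo-keto reductases (AKR) turn carbonyl groups into alcohols and aldehyde dehydrogenases (ALDH) turn aldehydes into acids. UDP-glucuronosyltransferases (UGT) then attach glucuronic acid, sulfotransferases (SULT) attach sulfate and glutathione S-transferases (GST) attach glutathione. Liver and intestine are the tissues best known for the whole set, while blood cells are known for a narrower choice of GST, ALDH and AKR genes.

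Each library held 35613283 to 36754725 counts, and the 108 genes took 0.213% to 0.228% of them. All 10 erythroid and megakaryocytic genes checked for K562 identity reached 1 FPKM, with summed levels of 7734 to 9593 FPKM in the control and 5662 to 6822 FPKM in the hyperoside libraries. The sum was dominated by the globins HBE1, HBG2 and HBG1, which were lower with hyperoside, while KLF1 (19.1 to 26.8 against 41.3 to 48.7 FPKM), EPOR (2.84 to 3.16 against 6.88 to 7.69 FPKM) and ALAS2 (80.6 to 96.9 against 124.5 to 128.8 FPKM) were higher in every hyperoside library. FPKM scales a count to the length of its gene and to the total of its library, and levels of different genes are compared here only on that scale. Of 8 hepatocyte markers only TTR reached 1 FPKM in any library, and their sum was 0.929 to 1.58 FPKM in the control and 0.979 to 1.41 FPKM in the hyperoside libraries. Of 7 monocyte and granulocyte markers only LYZ reached 1 FPKM, with sums of 34.0 to 37.8 FPKM in the control and 50.8 to 54.3 FPKM in the hyperoside libraries. CD14, MPO and ELANE stayed under 1 FPKM in every library. Of the T cell genes, CD3D had 34.5 to 42.2 FPKM in the control and 47.5 to 53.0 FPKM in the hyperoside libraries, while CD3E stayed under 1 FPKM in every library. The B cell gene MS4A1 was at or near 0. The 3 fibroblast markers stayed under 1 FPKM each. The part of these other markers in the results was not tested.

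Of the 108 genes, 50 had enough counts to be tested (about 10 counts or more in 3 libraries) and 58 did not. With hyperoside 17 of the 50 (34.0%) were higher and 7 (14%) were lower at an adjusted p under 0.05 in edgeR's quasi-likelihood test, and 26 were not called. Among all 15095 tested genes 22.1% were called higher and 23.2% lower. Genes that also changed more than 2-fold are called DEGs. By that threshold 7 enzyme genes rose (14%) and 1 fell (2.0%), against 6.43% and 3.76% of all tested genes. The share that rose rests in part on the filter, because 4 of the 7 (AKR1D1, SULT1C2, SULT2A1 and UGT2B7) reached the count minimum only in the hyperoside libraries, where they were high and so had to differ. Genes that reached the minimum in no library of 1 group are said to have passed through 1 group only. Without them, 3 of 46 enzyme genes were DEGs that rose (6.52%) and 1 was a DEG that fell (2.17%). Among the 14902 genes left in the table the shares were 5.82% and 3.5%. Of the 3, UGT2B15 and GSTM5 reached the minimum in 1 and 2 control libraries and in 3 hyperoside libraries. The filter therefore still bears on this share, and nothing is concluded from it. The normalized values of the groups did not overlap in 27 of the 50 genes (54.0%), against 54.4% of all tested genes. The median log2 fold change (log2FC) of the 50 genes was 0.09 and that of all tested genes was 0.00. In bulk RNA a change in the number of cells that express a gene and a change in RNA per cell cannot be told apart.

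Level went along with these shares. Among the 3852 tested genes with a mean under 3 CPM (counts scaled to library size), 14% were DEGs that rose and 6.88% were DEGs that fell, and 18 enzyme genes lay in this range, including all 7 that rose more than 2-fold. Among the 11243 genes at 3 CPM or more the shares were 3.83% and 2.69%, and of 32 enzyme genes there none rose and 1 fell by more than 2-fold. Of the 193 genes in the table that passed the filter through 1 group only, 52.8% were DEGs that rose. Without such genes 13 of 46 enzyme genes (28.3%) were higher and 7 (15.2%) were lower, against 21.7% and 23.2% of 14902 genes.

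**Figure D1:**
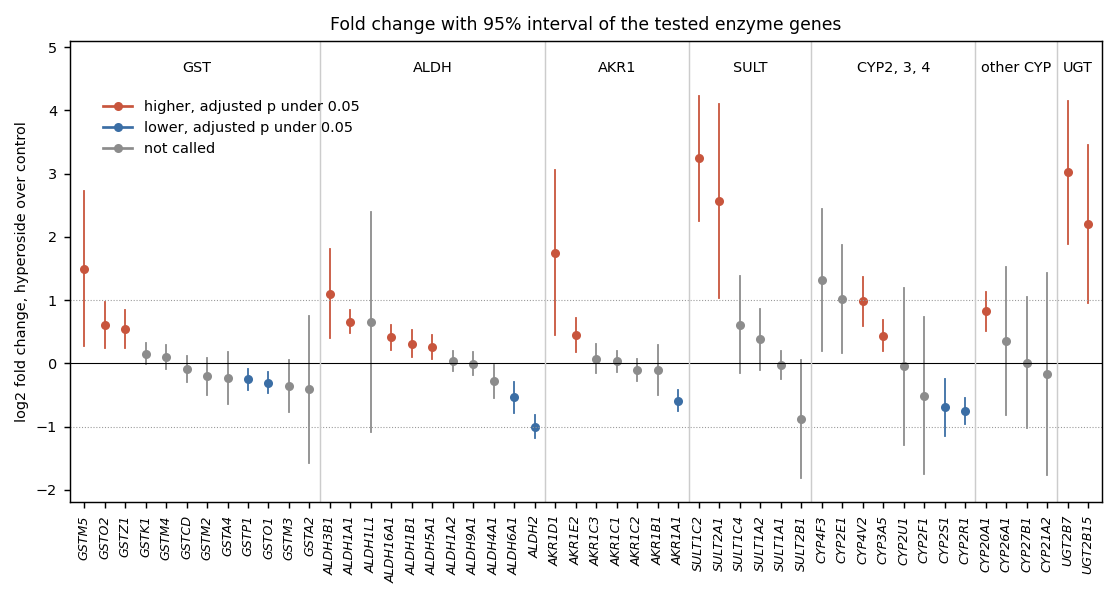
Log2 fold change, hyperoside over control (vertical axis), of the 50 tested enzyme genes, grouped by family, with the 95% interval from edgeR's fit as a line. Red marks the 17 genes called higher, blue the 7 called lower and grey the 26 not called, and the dotted lines mark a 2-fold change. The highest points, SULT1C2 and UGT2B7, have wide intervals, and the lowest point is ALDH2.

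Promoter sequence is shown for 3 genes of different families that were called and that hold a match to the antioxidant response element core, the short sequence through which NRF2, the factor the study is about, is known to act. The sequences are the 120 bases before the RefSeq start of the gene in GRCh38.p14, on the plus strand, and capitals mark the match to TGACNNNGC on either strand.
GSTP1: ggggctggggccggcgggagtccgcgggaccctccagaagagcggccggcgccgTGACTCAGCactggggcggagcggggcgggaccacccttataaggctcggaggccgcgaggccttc
SULT1C2: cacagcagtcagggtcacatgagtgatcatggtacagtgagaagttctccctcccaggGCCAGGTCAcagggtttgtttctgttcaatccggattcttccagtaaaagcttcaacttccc
CYP4V2: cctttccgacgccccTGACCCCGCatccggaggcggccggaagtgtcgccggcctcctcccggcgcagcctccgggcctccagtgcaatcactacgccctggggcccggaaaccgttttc
The windows are chr11:67583692-67583811 for GSTP1, chr2:108288775-108288894 for SULT1C2 and chr4:186191447-186191566 for CYP4V2. The match began 66, 62 and 105 bases before the start, and in SULT1C2 it lay on the minus strand. The GSTP1 match also holds TGACTCA, the sequence bound by AP-1. The GSTP1 and CYP4V2 windows had 75.8% and 71.7% G and C with 14 CG steps each, and the SULT1C2 window had 50% with 1.

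Such matches stood in a like share of the enzyme genes and of all promoters. In the 250 bases before the start TGACNNNGC stood in 10 of the 87 enzyme genes with a RefSeq promoter (11.5%) and in 10.9% of all 35116 promoters. It stood in 3 of 16 genes called higher (CYP4V2, GSTM5 and SULT1C2), in 2 of 6 called lower (GSTO1 and GSTP1), in 1 of 22 not called (GSTA4) and in 4 of 43 not tested. The core of the aryl hydrocarbon receptor site, GCGTG on either strand, stood in 20 of 87 (23.0%) and in 32.2% of all promoters, with 5 of 16 among those called higher and 0 of 6 among those called lower. The motifs can overlap at the letters GC, which did not occur in any of these genes, and a match is a description of the letters only.

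The UGT family was barely expressed, and 2 of its 16 members could be tested, both of which rose. UGT2B7 reached the count minimum in 0 control and 3 hyperoside libraries and UGT2B15 in 1 and 3, so their testing rested on the group in which they were high, and the 2 say nothing of the family as a whole. UGT2B7, which glucuronidates morphine and many steroids and lies at chr4:69051375-69112987, had 9, 3 and 5 counts in control replicates 1 to 3 and 42, 45 and 58 counts in the hyperoside replicates. The lowest hyperoside count was well above the highest control count, and the log2FC was 3.02 ± 0.54 (SE, n = 3 against 3, adjusted p = 0.000185), an 8.11-fold rise. UGT2B15, which acts on androgens and lies at chr4:68646597-68670652 in the same gene cluster, had 11, 4 and 4 counts in the control and 42, 26 and 24 counts in the hyperoside libraries. These groups did not overlap either, with a log2FC of 2.21 ± 0.59 (adjusted p = 0.00552). Of the 100-base stretches of UGT2B15, 12.7% also occur in UGT2B17, so its count is less certain than that of UGT2B7, which shared none.

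Even after the rise these RNAs were rare. UGT2B7 stood at 0.0696 ± 0.0363 FPKM (SD) in the control and 0.599 ± 0.107 FPKM in the hyperoside group, and UGT2B15 at 0.0818 ± 0.0506 and 0.4 ± 0.13 FPKM. The whole family summed to 0.28 ± 0.081 FPKM in the control and 1.33 ± 0.0776 FPKM in the hyperoside group, a difference that was not tested. UGT2B11 had 0, 0 and 2 counts in the control and 4, 5 and 11 counts in the hyperoside libraries, below the filter.

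None of the 7 UGT1A genes was tested. They share their last exons, so that 37.0% to 75.6% of their 100-base stretches also occur in another gene, and counts cannot be assigned firmly to a member. UGT1A10 had the most, with 9, 5 and 5 counts in the control and 13, 14 and 8 in the hyperoside libraries, and these overlap. UGT1A1, the bilirubin enzyme, and UGT1A3 had no count in any library, nor did UGT2A2 and UGT2B28.

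The SULT family was carried by SULT1A1, the main phenol sulfotransferase, which was not called, while its largest fold changes were in rare RNAs. SULT1A1 had 5.37, 5.16 and 5.31 FPKM in the control and 5.48, 5.41 and 5.23 FPKM in the hyperoside libraries. The groups overlapped, and the 95% interval of its log2FC ran from -0.24 to 0.20 (adjusted p = 0.871). SULT1A2, its neighbor on chromosome 16, had 1.74, 1.74 and 2.35 FPKM in the control and 2.04, 3.0 and 2.77 FPKM in the hyperoside libraries, with a log2FC of 0.38 ± 0.23 that was not called.

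SULT1C2, a phenol sulfotransferase at chr2:108288895-108309915 whose promoter is printed above, had the largest fold change of the 50 tested genes. It had 6, 8 and 6 counts in the control and 81, 72 and 46 counts in the hyperoside libraries. Every hyperoside library was far above every control library, with a log2FC of 3.24 ± 0.47 (adjusted p = 2.41e-05), a 9.47-fold rise to 0.70 ± 0.191 FPKM. SULT1C2 reached the count minimum in 0 control and 3 hyperoside libraries, so its testing rested on the group in which it was high. The gap between its groups is therefore no separate support. SULT1C4, which starts 68038 bases further along, had 41, 50 and 47 counts in the control and 108, 38 and 72 counts in the hyperoside libraries. Its groups overlapped because of hyperoside replicate 2, and it was not called with all libraries (log2FC 0.61 ± 0.36, adjusted p = 0.182) but was without that replicate (log2FC 0.92, adjusted p = 0.0403).

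SULT2A1, which sulfates dehydroepiandrosterone and bile acids and lies at chr19:47870467-47886315, had 5, 2 and 1 counts in the control and 14, 18 and 19 counts in the hyperoside libraries. The groups did not overlap, and the log2FC was 2.57 ± 0.73 (adjusted p = 0.00801). SULT2A1 too reached the count minimum in 0 control and 3 hyperoside libraries, so it was tested only through the group in which it was high. SULT2B1, which sulfates cholesterol and pregnenolone, had 81, 38 and 61 against 60, 20 and 21 counts. Its groups overlapped through hyperoside replicate 1, and the fall was called only without that replicate (log2FC -0.88, adjusted p = 0.117 with all libraries and log2FC -1.59, adjusted p = 0.0146 without it). Of the 5 untested SULT genes, SULT4A1 had 8 to 19 counts per library, SULT1B1 up to 4, and SULT1E1, SULT1A3 and SULT1A4 no more than 3. SULT1A3 and SULT1A4 are near-identical copies, with 80.4% and 95.3% of their 100-base stretches found in another gene, so their low counts do not give their level.

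**Figure D2:**
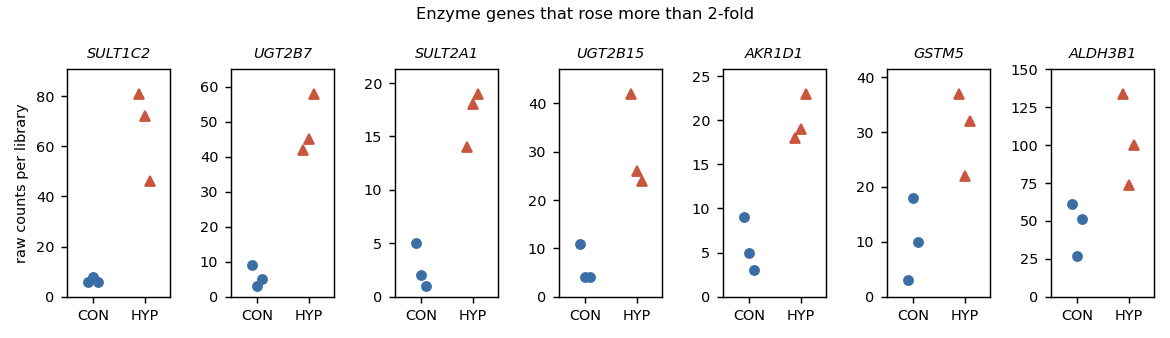
Raw counts per library (vertical axis, starting at 0, a scale for each gene) of the 7 enzyme genes that rose more than 2-fold, in the 3 control (CON, blue circles) and 3 hyperoside (HYP, red triangles) libraries. In each panel every hyperoside library lies above every control library, and no control library exceeds 61 counts. The genes were picked for their rise, so this separation is no separate support. AKR1D1, SULT1C2, SULT2A1 and UGT2B7 reached the count minimum in no control library.

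The GST family was the most abundant of the set, and its most abundant members fell slightly. GSTP1, the pi class enzyme at chr11:67583812-67586653, had 635.7, 555.4 and 549.3 FPKM in the control and 477.7, 527.8 and 505.2 FPKM in the hyperoside libraries. All hyperoside values were below all control values, and its log2FC was -0.26 ± 0.08 (adjusted p = 0.0135). Without hyperoside replicate 1 the adjusted p was 0.0923, and on the log2(FPKM + 1) scale it was 0.0537. GSTO1, an omega class enzyme that also reduces dehydroascorbate, at chr10:104254173-104267455, had 234, 209.5 and 197.6 FPKM in the control and 176.4, 182.7 and 178.7 FPKM in the hyperoside libraries. Here too the groups did not overlap (log2FC -0.30 ± 0.08, adjusted p = 0.00436). Together GSTP1 and GSTO1 made up most of the summed GST level, which was 910.5 ± 72.0 FPKM in the control and 814.1 ± 27.7 FPKM in the hyperoside group.

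GSTO2 lies 1728 bases from GSTO1 and moved the other way. It had 0.318, 0.319 and 0.357 FPKM in the control and 0.483, 0.531 and 0.547 FPKM in the hyperoside libraries. The groups did not overlap, with a log2FC of 0.60 ± 0.17 (adjusted p = 0.00825). Within each library the ratio of GSTO2 to GSTO1 was 0.00136, 0.00152 and 0.00181 in the control and 0.00274, 0.00291 and 0.00306 in the hyperoside libraries. This ratio follows from the opposite changes of the 2 genes and is a description only. A permutation test of its log2 over the 20 regroupings of the libraries gave p = 0.1. The test can give no lower p with 3 libraries a group, so it decides nothing. GSTZ1, the maleylacetoacetate isomerase of tyrosine breakdown, rose from 3.32, 2.52 and 2.53 FPKM to 4.33, 4.33 and 4.02 FPKM (log2FC 0.55 ± 0.14, adjusted p = 0.00419), again without overlap.

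GSTM5, a mu class gene at chr1:109711751-109718268, had 3, 18 and 10 counts in the control and 37, 22 and 32 counts in the hyperoside libraries. The groups did not overlap, but control replicate 2 came near hyperoside replicate 2, and the call at a log2FC of 1.5 ± 0.58 was close to the threshold (adjusted p = 0.0443). It was lost by leaving out any library but control replicate 2, with adjusted p from 0.0591 to 0.156, and in DESeq2 (adjusted p = 0.06). The neighbors GSTM2, GSTM3 and GSTM4 were not called, with log2FC of -0.21, -0.35 and 0.10. GSTM2 shares 12.9% and GSTM4 7.11% of their 100-base stretches with other genes. GSTM3 was called lower only without hyperoside replicate 3 (log2FC -0.55, adjusted p = 0.0444).

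GSTK1, the kappa class enzyme of mitochondria and peroxisomes and the third in level, was not called in edgeR but was on the FPKM scale. It had 85.5, 78.4 and 73.4 FPKM in the control and 89.9, 93.0 and 90.8 FPKM in the hyperoside libraries. These FPKM values did not overlap while the TMM-normalized values did, and the log2FC was 0.15 ± 0.08 (adjusted p = 0.128). With limma on log2(FPKM + 1) the adjusted p was 0.0254, and in edgeR without control replicate 1 it was 0.00451. GSTCD, GSTA4 and GSTA2 were not called, with log2FC of -0.09, -0.23 and -0.41. GSTA4, known for its action on hydroxynonenal, a product of lipid peroxidation, had a 95% interval from -0.64 to 0.18. GSTM1, GSTA1, GSTA3 and GSTT4 had at most 1 count in any library.

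**Figure D3:**
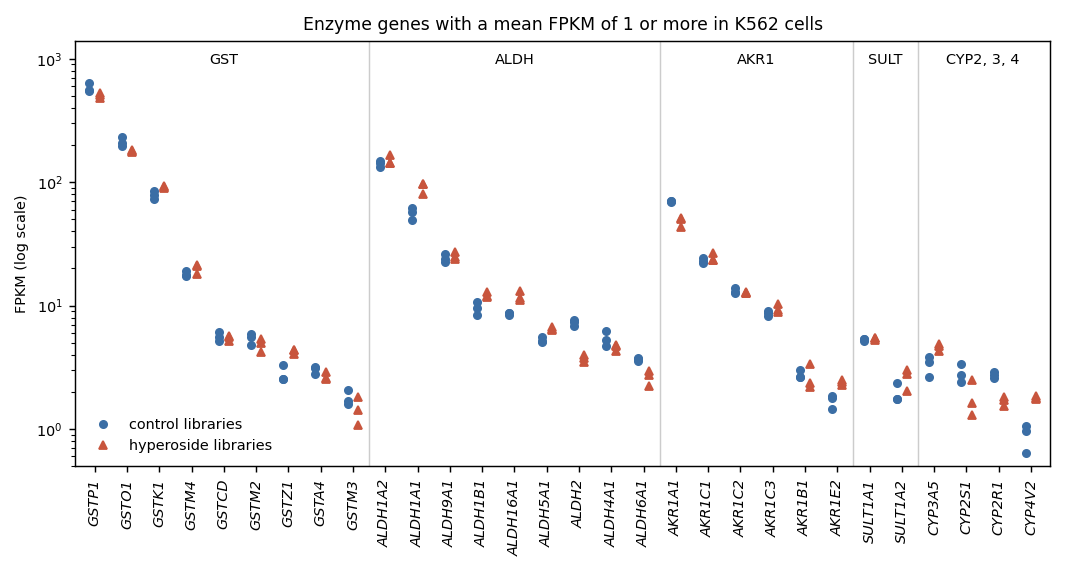
FPKM per library on a log axis (vertical) of the 30 enzyme genes with a mean of 1 FPKM or more, ordered by level within each family, in the 3 control (blue circles) and 3 hyperoside (red triangles) libraries. GSTP1, GSTO1 and ALDH1A2 are the most abundant, no CYP gene exceeds 5 FPKM and no UGT gene reaches the cutoff.

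In the AKR1 family the most abundant gene fell while the steroid enzymes next to it in level were not called. AKR1A1, an aldehyde reductase of broad range at chr1:45550826-45570049, had 70.7, 69.6 and 70.8 FPKM in the control and 51.3, 43.7 and 50.2 FPKM in the hyperoside libraries. The groups were far apart for their spread, with a log2FC of -0.59 ± 0.08 (adjusted p = 9.90e-06). The family sum was 119.9 ± 1.62 FPKM in the control and 100.4 ± 2.85 FPKM in the hyperoside group, and the share of AKR1A1 in it was 58.1% to 59.1% in the control and 44.9% to 50.6% in the hyperoside libraries.

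AKR1C1, AKR1C2 and AKR1C3 are hydroxysteroid dehydrogenases from a cluster on chromosome 10. AKR1C1 had 24.5, 22.8 and 22.1 FPKM in the control and 23.3, 26.7 and 23.4 FPKM in the hyperoside libraries, which overlap, and the interval of its log2FC ran from -0.14 to 0.20. The log2FC was -0.10 for AKR1C2, 0.07 for AKR1C3 and -0.11 for AKR1B1, the aldose reductase, and none of them was called. AKR1C1 and AKR1C2 share 16.7% and 23.1% of their 100-base stretches with other AKR1C genes, so reads may be divided unevenly between them. AKR1C genes and AKR1B10 are textbook targets of NRF2, and AKR1B10 itself had 0 to 17 counts per library and was not tested.

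AKR1E2, a fructose derivative reductase in the same region, rose from 1.46, 1.78 and 1.84 FPKM to 2.41, 2.29 and 2.47 FPKM, without overlap (log2FC 0.45 ± 0.13, adjusted p = 0.0085). AKR1D1, the steroid ring reductase of bile acid synthesis at chr7:138076459-138118305, had 9, 5 and 3 counts in the control and 18, 19 and 23 counts in the hyperoside libraries. The groups did not overlap, at a log2FC of 1.75 ± 0.62 (adjusted p = 0.0285). AKR1D1 reached the count minimum in 0 control and 3 hyperoside libraries, so it was tested only through the group in which it was high. The call was lost without any library but control replicate 1, with adjusted p from 0.067 to 0.12, and in DESeq2 (adjusted p = 0.0547). AKR1C8 had 0, 1 and 1 counts in the control and 15, 5 and 4 counts in the hyperoside libraries, below the filter, and AKR1C4 and AKR1B15 had at most 4 and 6 counts.

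Among P450 genes, 8 of the 28 in families CYP2, CYP3 and CYP4 were tested, and no CYP gene passed as a DEG. Of the 8, 2 were higher (25.0%) and 2 lower (25.0%), near the 22.1% and 23.2% of all tested genes. CYP3A5, a drug oxidizing enzyme at chr7:99648194-99679996 and the most abundant, had 2.65, 3.48 and 3.85 FPKM in the control and 4.92, 4.26 and 4.74 FPKM in the hyperoside libraries. The groups did not overlap, and the log2FC was 0.43 ± 0.12 (adjusted p = 0.00565). CYP3A4, its better known liver relative, had 2, 2 and 1 counts in the control and 12, 1 and 0 counts in the hyperoside libraries. CYP4V2, a fatty acid hydroxylase whose promoter is printed above, had 0.637, 1.06 and 0.971 FPKM in the control and 1.80, 1.76 and 1.85 FPKM in the hyperoside libraries. The hyperoside values were tightly grouped above the control values, with a log2FC of 0.98 ± 0.18 (adjusted p = 0.000309), just under a 2-fold change.

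CYP2R1, a vitamin D hydroxylase at chr11:14877440-14892443, had 2.6, 2.89 and 2.74 FPKM in the control and 1.83, 1.71 and 1.52 FPKM in the hyperoside libraries. The groups were well apart (log2FC -0.75 ± 0.10, adjusted p = 7.72e-06). CYP2S1 had 3.34, 2.39 and 2.72 FPKM in the control and 2.48, 1.63 and 1.30 FPKM in the hyperoside libraries. These overlapped, as hyperoside replicate 1 exceeded control replicate 2, and the fall (log2FC -0.70 ± 0.22, adjusted p = 0.014) was no longer called without control replicate 1, hyperoside replicate 2 or hyperoside replicate 3 (adjusted p = 0.0507, 0.0564 and 0.0863).

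CYP2E1 and CYP4F3 lay just past the threshold. CYP2E1, the ethanol inducible enzyme, had 18, 34 and 22 counts in the control and 60, 42 and 53 counts in the hyperoside libraries, and CYP4F3, which inactivates leukotriene B4 in neutrophils, had 19, 14 and 6 against 22, 43 and 36 counts. Neither pair of groups overlapped, at log2FC of 1.02 ± 0.41 (adjusted p = 0.0504) and 1.32 ± 0.53 (adjusted p = 0.0514). CYP2E1 was called with RLE size factors in edgeR (adjusted p = 0.0496), with limma on log2(FPKM + 1) and log2(FPKM + 0.1) (adjusted p = 0.00969 and 0.0132) and without control replicate 2 (adjusted p = 0.032), and CYP4F3 without control replicate 1 (adjusted p = 0.0324). Of the exon bases of CYP2E1, 23.9% also belong to genes on the other strand, SYCE1 among them, and the strand setting of the counting is not given in the sources used here. CYP2F1 and CYP2U1 had log2FC of -0.52 and -0.05 and were not called. The 20 untested genes had at most 12 counts in any library, and CYP2C19, CYP4A22 and CYP4B1 had none.

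Of the P450 genes outside these families, CYP20A1 alone of 4 tested was called. It had 0.54, 0.659 and 0.821 FPKM in the control and 1.21, 1.24 and 1.23 FPKM in the hyperoside libraries, without overlap, and its log2FC was 0.82 ± 0.14 (adjusted p = 0.000164). CYP20A1 has no established substrate. CYP27B1, which activates vitamin D, had 26, 17 and 35 counts in the control and 31, 36 and 14 counts in the hyperoside libraries, so the groups overlapped fully (log2FC 0.01 ± 0.49). CYP26A1, which degrades retinoic acid, had 20 to 21 counts in the control and 39, 7 and 36 counts in the hyperoside libraries, and CYP21A2, the adrenal steroid hydroxylase, ranged from 1 to 20 counts. The other 5 had at most 5 counts.

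The ALDH family had the most calls, with 5 of 11 tested genes higher (45.5%) and 2 lower (18.2%) against 22.1% and 23.2% of all tested genes, and held the smallest adjusted p of the set. ALDH2, the mitochondrial enzyme that clears acetaldehyde and other reactive aldehydes, at chr12:111766933-111817532, had 7.35, 6.81 and 7.59 FPKM in the control and 3.48, 3.76 and 3.98 FPKM in the hyperoside libraries. The groups were far apart, and with a log2FC of -1.0 ± 0.09 (adjusted p = 7.67e-08) it was the only enzyme gene to fall more than 2-fold. The 95% interval of its log2FC ran from -1.19 to -0.82, so whether it counts as a DEG depends on the setting. The fold was under 2 without control replicate 1, control replicate 3 or hyperoside replicate 1 (log2FC -0.97, -0.99 and -0.95), while its adjusted p stayed under the threshold in each of the 13 alternatives.

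ALDH1A1 and ALDH1A2 make retinoic acid from retinaldehyde and were the most abundant of the family. ALDH1A1, at chr9:72900671-72953053, had 49.5, 57.6 and 61.2 FPKM in the control and 97.4, 80.0 and 97.1 FPKM in the hyperoside libraries. All hyperoside values were above the control values, with a log2FC of 0.66 ± 0.09 (adjusted p = 8.81e-06). ALDH1A2, at chr15:57953429-58065711, had 149.2, 142.6 and 133.7 FPKM in the control and 143.1, 164.6 and 143.8 FPKM in the hyperoside libraries. These overlapped, and the interval of its log2FC ran from -0.13 to 0.20. The ratio of ALDH1A1 to ALDH2 was 6.74, 8.47 and 8.07 in the control and 28.0, 21.3 and 24.4 in the hyperoside libraries. This too follows from the opposite changes of the 2 genes. The permutation test used for the GSTO pair gave p = 0.1 here as well, the lowest it can give.

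**Figure D4:**
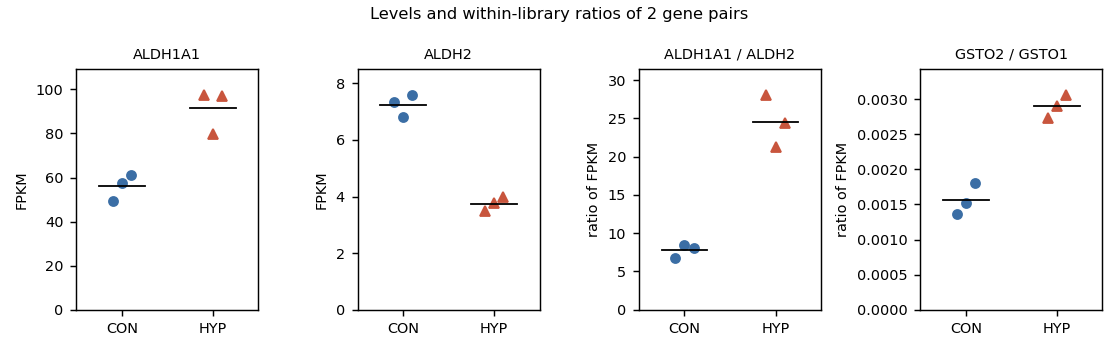
FPKM of ALDH1A1 and of ALDH2 and the within-library ratios of ALDH1A1 to ALDH2 and of GSTO2 to GSTO1 (vertical axes, starting at 0), in the 3 control (CON, blue circles) and 3 hyperoside (HYP, red triangles) libraries, with the group mean as a line. The mean ALDH1A1 to ALDH2 ratio is 7.76 in the control and 24.6 in the hyperoside group, and the groups do not overlap in any panel.

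The other ALDH genes moved less. ALDH16A1 rose from 8.67, 8.65 and 8.46 FPKM to 11.5, 13.1 and 11.0 FPKM (log2FC 0.41 ± 0.09, adjusted p = 0.00168), and ALDH6A1, which acts in valine breakdown, fell from 3.79, 3.56 and 3.66 FPKM to 2.92, 2.22 and 2.72 FPKM (log2FC -0.54 ± 0.12, adjusted p = 0.00117). Neither pair of groups overlapped. Of the exon bases of ALDH6A1, 10% lie opposite BBOF1. ALDH1B1, a mitochondrial relative of ALDH2, had a log2FC of 0.31 ± 0.10 (adjusted p = 0.0207), and without control replicate 3 or hyperoside replicate 2 it was not called (adjusted p = 0.127 and 0.0848). ALDH5A1, which clears succinic semialdehyde, had a log2FC of 0.26 ± 0.09 (adjusted p = 0.0255) and was not called without control replicate 2 or any of the hyperoside replicates (adjusted p from 0.0523 to 0.0958).

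ALDH3B1, which acts on aldehydes from membrane lipids, at chr11:68008547-68029276, had 61, 27 and 51 counts in the control and 134, 74 and 100 counts in the hyperoside libraries. The groups did not overlap, and it rose by a log2FC of 1.1 ± 0.33 (adjusted p = 0.0122), but not past the threshold without control replicate 2 or hyperoside replicate 1 (adjusted p = 0.0558 and 0.0867). ALDH9A1, an enzyme of carnitine synthesis, had 22.7, 24.1 and 26.2 FPKM in the control and 24.7, 23.6 and 27.0 FPKM in the hyperoside libraries and a log2FC of 0.00 ± 0.08. ALDH4A1, which acts in proline breakdown, had a log2FC of -0.28 ± 0.12 (adjusted p = 0.071) and was called lower only without control replicate 2 (adjusted p = 0.0291). Of the exon bases of ALDH4A1, 41.1% also belong to AL080251.1 on the same strand, so its count is less certain. ALDH1L1 was not called, and the 6 untested genes had at most 16 counts. The summed FPKM of the family was 262.6 ± 1.78 in the control and 309.8 ± 2.45 in the hyperoside group, and this difference was not tested.

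Genes that supply these enzymes or control them were looked at as a list of 55, of which 38 were tested, 8 were higher and 15 were lower, with a median log2FC of -0.16. Over all tested genes 22.1% were higher and 23.2% were lower. None of the 4 genes of P450 electron transfer was called, including POR, the P450 reductase (log2FC -0.17, adjusted p = 0.125). Of 4 genes for glutathione synthesis and reduction, GCLC, GCLM and GSR were lower (log2FC -0.37, -0.59 and -0.24, adjusted p = 0.00397, 0.000219 and 0.0095), and GSS was not called. For UDP-glucuronate supply UGDH was lower and SLC35D1 higher of 3. For sulfate supply BPNT1 was lower of 4 tested, and PAPSS1, which makes the sulfate donor, was not called. Of the 3 microsomal GST genes MGST1 was higher. Of 10 other reductases and hydrolases 3 were higher (AKR7A3, NQO1 and DHRS4) and 5 lower (NQO2, CBR1, CBR4, DCXR and EPHX1). Among other conjugating enzymes TPMT and NNMT were lower, and the tested alcohol dehydrogenase ADH5 and the glycosyltransferase UGT8 were lower.

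Among the regulators NFE2L2, which encodes NRF2, was lower (log2FC -0.52, adjusted p = 2.46e-05), KEAP1, its inhibitor, was higher (log2FC 0.72, adjusted p = 2.54e-06), RXRA was higher and ARNT was not called. The RNAs of the xenobiotic receptors themselves were at 0 or near it. AHR had 3, 1 and 0 counts in the control and 0, 1 and 0 counts in the hyperoside libraries, and NR1I2 and NR1I3, which encode PXR and CAR, had none in any library. CYP1A1, the gene best known to answer to AHR, had 5, 0 and 7 counts in the control and 0, 0 and 4 counts in the hyperoside libraries, and CYP1B1 had at most 1. Since a count of 0 leaves room for as many as 3 counts by counting error alone, a low level of these RNAs was not detectable.

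Of the 58 enzyme genes that were not tested, the highest count in any library was 19, 34 had no more than 3 counts in any library and 9 had none at all. Many of these are liver or intestinal enzymes such as CYP2B6 and UGT1A1. At this depth a change in them was not detectable. Some had counts in a single library only, such as CYP2W1 with 6 counts in hyperoside replicate 2 and CYP4X1 with 4 counts in hyperoside replicate 1.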

How the data were processed

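RNA-seq was performed on 3 control and 3 hyperoside libraries of K562 cells, grouped by their labels. The authors deposited raw counts per gene and FPKM values made from the same counts. The submitters' processing notes name fastp, HISAT2, HTSeq and hg38, and the study used the DESeq package. The annotation and strand setting are not given in the sources used here. The FPKM values fit a gene length common to all 6 libraries, within 0.1%, in 16173 of 16173 genes compared.

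Counts were tested in R 4.3.3 with edgeR 4.0.16 (filterByExpr with a minimum count of 10 and total of 15, TMM, quasi-likelihood test, treatment as the only term), and p-values were adjusted by Benjamini-Hochberg over 15095 genes. TMM factors were 0.957 to 1.03, and the biological coefficient of variation was 0.105. The threshold for a call was an adjusted p of 0.05, and a DEG also changed more than 2-fold. SE is the log2FC divided by the square root of F, and intervals are 95%. Alternatives used DESeq2 1.42.0 and limma 3.58.1, other filters and scalings, each library left out and a block for the replicate number. Steps were tested on simulated data.

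The members and lists were chosen with earlier results of these data known. Values per library are given for DEGs, for the 3 other called members per family with the smallest adjusted p and for the 2 with the highest mean FPKM, and other genes with values per library were chosen after their values were seen. Marker lists covered erythroid, hepatocyte, lymphocyte, monocyte and granulocyte, and fibroblast genes. Some listed genes are not reported here. Positions and promoters are from RefSeq (GRCh38.p14), which matched 108 and 87 of the 108 genes. Shared stretches of 100 bases and exon overlaps were computed from GENCODE 29, which matched 107. Plots and tables were made in Python 3.11.15 with pandas 2.3.3, numpy 2.4.6 and matplotlib 3.10.9.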

Additional observations from a re-analysis of the deposited data

How the results depend on the processing

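Of the 24 called enzyme genes, 17 kept their direction and call in every alternative that gave them a value, and none of the 24 reversed. The other 7 (AKR1D1, ALDH1B1, ALDH3B1, ALDH5A1, CYP2S1, GSTM5 and GSTP1) lost the call in at least 1. Counts of DEGs moved most. With a fold above 1.5, the enzyme DEGs were 11 higher and 4 lower, and those of all genes 1785 and 1378. With limma on log2(FPKM + 1) there were 0 and 0 enzyme DEGs, and 208 and 136 of all genes, since the added 1 shrinks the fold of rare RNAs. ALDH2 was no DEG with limma on log2(FPKM + 0.1), with no filter or with the stricter filter (at least 50 counts in 3 libraries), which each left 0 lower enzyme DEGs. The stricter filter left 1 higher DEG and 11 genes called higher, and tested no SULT or UGT gene that had been called, so that both families had 0 calls. Leaving out a library gave 4 to 7 higher and 0 to 1 lower enzyme DEGs, 3 to 5 calls in the GST family and 5 to 8 partner genes called higher. The lowest of these came without hyperoside replicate 1 for the DEGs (4) and the GST calls (3), without control replicate 1 or 3 for the lower DEGs (0), and without hyperoside replicate 3 for the partner genes (5). Without hyperoside replicate 1 ALDH2 was also no DEG, and the lower DEG was SULT2B1.

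Control and hyperoside libraries with the same replicate number did not deviate together (correlations of -0.081, -0.0327 and -0.0342), so the numbers were not taken to pair them. With the replicate block the enzyme calls were 14 higher and 7 lower and the DEGs 5 and 1, with AKR1D1, ALDH5A1 and GSTM5 not called (adjusted p = 0.0522, 0.0618 and 0.0601), and CYP27B1 turned to a log2FC of -0.0194.

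Reversals were limited to genes that were not called. The log2FC of ALDH9A1 turned to 0.00398 with no filter, 0.0149 with the stricter filter, 0.0433 on log2(FPKM + 1) and 0.0449 on log2(FPKM + 0.1), and that of SULT1A1 to 0.0219 and 0.0255 on those 2 scales. With a library left out the log2FC ranged from -0.319 to 0.0172 in AKR1B1, -0.039 to 0.0967 in AKR1C1, -0.0344 to 0.0959 in ALDH1A2, -0.0526 to 0.0385 in ALDH9A1, -0.619 to 0.5 in CYP21A2, -0.251 to 0.323 in CYP27B1, -0.567 to 0.161 in CYP2U1 and -0.0467 to 0.0111 in SULT1A1. Few counts limit the precision for the rarest genes, and 3 libraries a group limit all.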
